A study of Mus musculus with 6 samples.

Results

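Type I interferon-stimulated genes are the genes that cells switch on when interferon-α or interferon-β binds its receptor. A fixed list of 39 such genes was followed in chronic stroke infarcts, out of 46078 genes in the count tables. The list was set by gene symbol, and every symbol was found in the tables. It holds 3 signaling factors, 6 nucleic acid sensors, 6 genes of the OAS family, 4 of the IFIT family and 6 other intracellular effectors. The rest are 4 membrane restriction factors, 6 genes of the ubiquitin-like ISG15 system or other regulators grouped with it, and 4 further induced genes. The question was how strongly these genes were expressed in the infarct compared with the equivalent cortex of the other hemisphere, and how far the infarcts differed from each other.

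The tissue came from wild-type C57BL/6J mice aged 3 months. They were male according to the study's methods. Stroke was induced in the DH model, a permanent occlusion of the distal middle cerebral artery followed by hypoxia, so the contralateral cortex came from brains that had gone through the same surgery and hypoxia. At 7 weeks after stroke, 3 infarcts and 3 contralateral cortices were profiled by bulk RNA-Seq of polyadenylated RNA. The sample records name no drug or vehicle for these mice and do not state which infarct and which cortex shared a mouse, so *p* values measure the spread between libraries.

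Nucleic acid sensors in the cytoplasm and in endosomes detect viral or misplaced self RNA and DNA and trigger the synthesis of type I interferons. The interferons bind IFNAR1 and IFNAR2, whose kinases JAK1 and TYK2 activate STAT proteins. The resulting complex ISGF3, which contains STAT2 and IRF9, binds the interferon-stimulated response element (ISRE) in the promoters of antiviral genes. In the brain, microglia, infiltrating leukocytes, endothelium, astrocytes and neurons can all respond to interferon.

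The promoters of 28 of the 39 genes were in the RefSeq promoter table for GRCm38.p6, each covering 250 bases before to 50 bases after a gene start. The search was for the ISRE core on either strand, written as GAAA, any pair of bases and GAAA again, which reads TTTC, any pair and TTTC from the other strand. It was present for 15 of the 28 genes (53.6%), compared with 3.99% of all 27025 genes in the table. The gamma-activated site TTCNNNGAA, an element of genes that respond to interferon-γ, was present for 8 of the 28 genes (28.6%), compared with 9.55% of all genes. In *Bst2* and *Ifitm3* a match to one motif overlapped a match to the other. A match is a run of letters and not a measured binding site. The windows below show the arrangement in genes whose expression is described later, with the ISRE core in capitals and the gene strand written 5′ to 3′. They were chosen for upstream matches and for their contrasts, such as overlapping copies in *Isg15* and a pair of separate copies in *Ifit1*.
Isg15 (chr4:156200863-156200908, minus strand): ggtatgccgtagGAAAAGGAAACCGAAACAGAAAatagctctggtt
Ifit1 (chr19:34640773-34640825, plus strand): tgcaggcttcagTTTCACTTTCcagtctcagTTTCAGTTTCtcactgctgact
Bst2 (chr8:71537575-71537614, minus strand): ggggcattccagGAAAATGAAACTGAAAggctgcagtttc
Oas3 (chr5:120777713-120777746, minus strand): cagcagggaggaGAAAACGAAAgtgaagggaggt
Rsad2 (chr12:26456551-26456584, minus strand): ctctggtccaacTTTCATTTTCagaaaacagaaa
Stat2 (chr10:128270264-128270297, plus strand): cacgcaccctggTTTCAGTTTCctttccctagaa
Ifit3 (chr19:34583361-34583394, plus strand): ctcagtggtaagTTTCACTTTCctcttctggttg
Ifit3b (chr19:34607757-34607790, plus strand): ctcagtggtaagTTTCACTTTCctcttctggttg

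The printed windows of the neighboring paralogs *Ifit3* and *Ifit3b* were identical letter for letter. Each gene also held a second match nearer its start, at 122 to 113 bases before it in *Ifit3* and 154 to 145 bases in *Ifit3b*. In *Isg15*, overlapping matches ran from 78 to 57 bases before the start, so that the GAAA unit recurred without a break. The *Ifit1* matches spanned 104 to 76 bases before the start, and the match of *Stat2* lay farthest upstream, at 222 to 213 bases. In *Ddx58*, *Eif2ak2*, *Ifih1* and *Ifitm3*, all matches to the ISRE core lay downstream of the start. The 15 genes with the core had a median log2 fold change between infarct and contralateral cortex of 3.93, and the 13 genes without it 3.74, so the medians of the groups with and without these letters in the window were close.

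**Figure D1:**
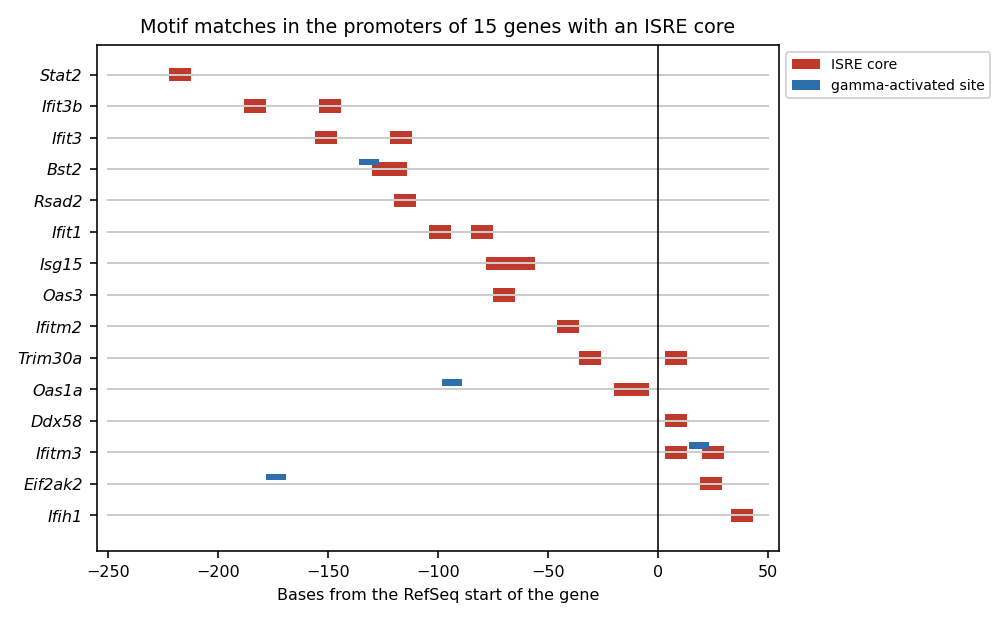
Matches to the ISRE core (red) and the gamma-activated site (blue) in the promoters of the 15 interferon-stimulated genes with an ISRE core, by distance in bases from the RefSeq gene start (vertical line), each gene on 1 row. For *Trim30a* the matches of 2 alternative starts share a row. Matches lie between 222 bases before the start (*Stat2*) and 42 bases after it (*Ifih1*).

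Libraries held between 11943570 and 19933962 counts on genes. Levels are in TMM-scaled CPM, that is counts scaled to library size after edgeR's correction for library composition, always in the order of libraries 1, 2 and 3 of a region. Against this scale, 3 counts correspond to 0.156 to 0.276 CPM in a contralateral library and 0.204 to 0.239 CPM in an infarct library. The regions were compared with edgeR's quasi-likelihood test, adjusted by Benjamini-Hochberg over all 15554 genes tested. A gene counted as upregulated or downregulated when its adjusted *p* was under 0.05 and its fold change above 2.

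All 39 genes passed the filter on low counts. In infarcts 38 were upregulated and 0 were downregulated, against a background of 25.7% of all tested genes upregulated and 20.9% downregulated. Of the 38, *Zbp1* and *Ifi27l2a* had at most 3 counts in every contralateral library. These 2 passed the filter through the infarcts only and could not have been called lower. *Adar* was the gene not called. In edgeR 1 gene, *Adar*, was lower at an unadjusted *p* under 0.05, and DESeq2 and limma voom also called 0 of the 39 downregulated. The infarct and contralateral values did not overlap for any of the 39 genes, as for 72.3% of all tested genes. The median log2 fold change was 3.93, compared with 0.03 over all tested genes, whose middle 50% spanned -0.82 to 1.09. A fitted change above 8-fold was found for 28 of the 39 genes and above 16-fold for 19. In bulk tissue, a higher level can come from more cells of a type or from more RNA per cell, and these cannot be told apart here.

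**Figure D2:**
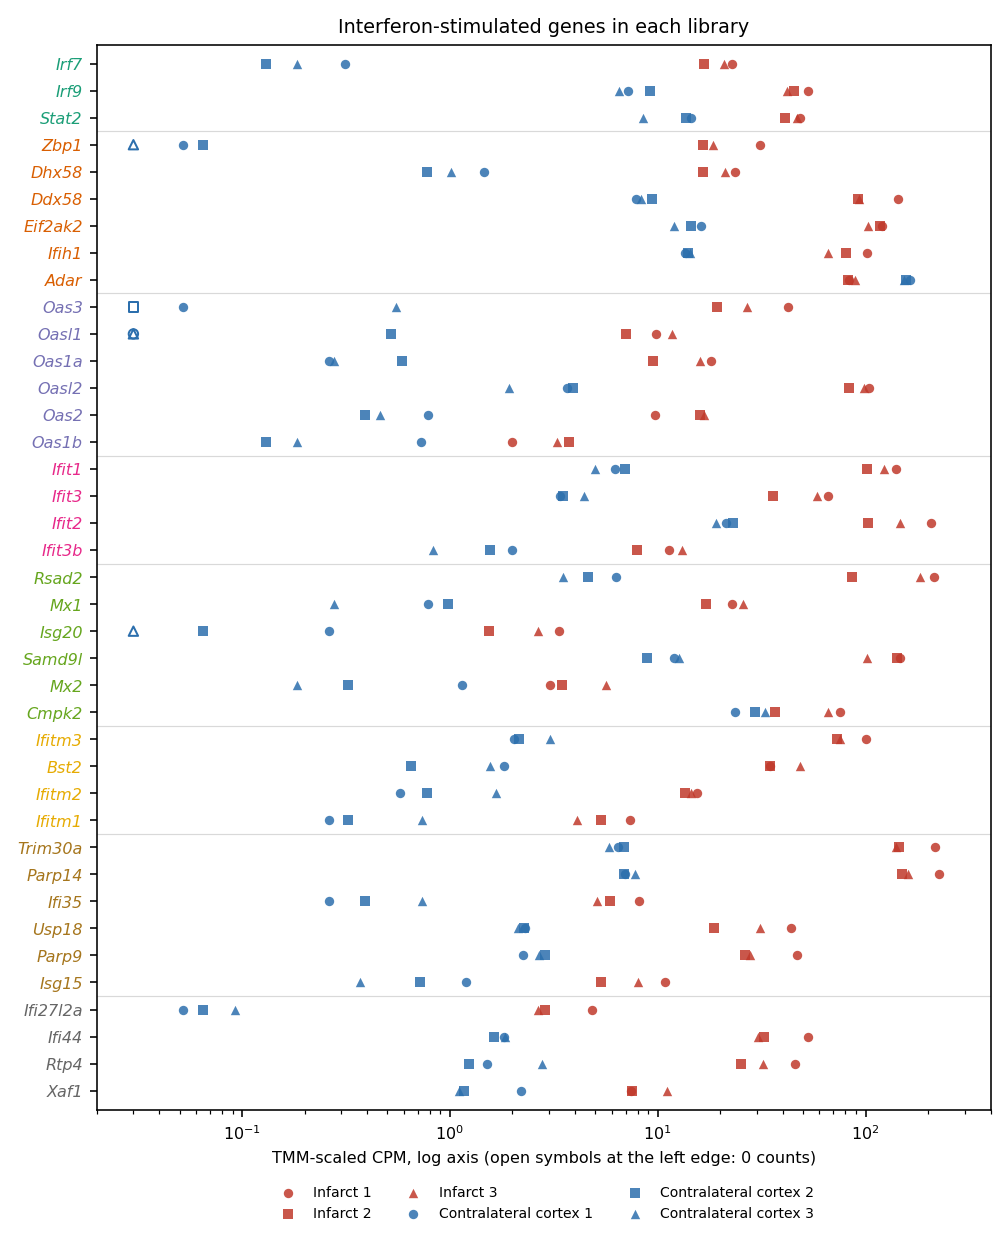
TMM-scaled CPM (log axis) of the 39 interferon-stimulated genes in 3 infarct libraries (red) and 3 contralateral libraries (blue), grouped by role, with open symbols at the left edge for 0 counts. Red and blue symbols do not overlap for any gene, and *Adar* is the gene whose red symbols lie to the left.

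All 3 signaling factors rose. *Irf7* encodes the transcription factor that amplifies interferon-α synthesis, and its levels were 22.7, 16.7 and 20.8 CPM in infarcts, compared with 0.313, 0.130 and 0.184 CPM contralaterally, which rest on 6, 2 and 2 counts. Its log2 fold change was 6.47 ± 0.41 (standard error), with an adjusted *p* of 3.35e-07 from edgeR with Benjamini-Hochberg adjustment. The ISGF3 subunits *Irf9* and *Stat2* were already well counted in the contralateral cortex and changed less. *Irf9* had 53.0, 45.2 and 42 CPM in infarcts and 7.20, 9.16 and 6.54 CPM contralaterally, a log2 fold change of 2.61 ± 0.19. *Stat2* had 48.4, 40.8 and 46.5 CPM in infarcts and 14.4, 13.6 and 8.48 CPM contralaterally, with 1.88 ± 0.21. Adjusted *p* values were 2.61e-06 for *Irf9* and 4.48e-05 for *Stat2* in the same edgeR test.

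Of the 6 nucleic acid sensors, 5 rose. The RIG-I-like receptors bind viral RNA in the cytoplasm. *Ddx58*, which encodes RIG-I, had 143, 91.5 and 93.3 CPM in infarcts and 7.87, 9.36 and 8.29 CPM contralaterally. *Ifih1*, which encodes MDA5, had 102, 80.6 and 65.8 CPM against 13.5, 14.0 and 14.4 CPM. For both genes every infarct library was several times above every contralateral library, and the log2 fold changes were 3.68 ± 0.20 and 2.57 ± 0.18. *Dhx58* encodes LGP2, the member of this family that lacks signaling domains, and reached 23.6, 16.5 and 21 CPM against 1.46, 0.780 and 1.01 CPM, a log2 fold change of 4.19 ± 0.28.

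*Zbp1* encodes a sensor of left-handed nucleic acids that can start necroptosis, and it stood at the edge of detection in the contralateral cortex. It had 391, 225 and 271 counts in infarcts (31.1, 16.5 and 18.5 CPM) and 1, 1 and 0 counts contralaterally. With 3 counts set in each contralateral library, its expression in infarcts was at least 105-fold higher, a bound that covers counting error only. *Eif2ak2* encodes PKR, the kinase that halts translation on double-stranded RNA. It had 119.5, 117 and 103 CPM in infarcts and 16.2, 14.5 and 12 CPM contralaterally, the tightest set of infarct values among the sensors that rose, with a log2 fold change of 2.99 ± 0.16.

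*Adar* went the other way. It encodes the enzyme that edits adenosines in double-stranded RNA and so keeps self RNA from activating MDA5. Infarcts had 83.0, 82.4 and 88.7 CPM and contralateral cortices 164, 157 and 153 CPM. Its log2 fold change was -0.90 ± 0.13, with an adjusted *p* of 1.72e-04 (edgeR, Benjamini-Hochberg), and it was not called since the change was under 2-fold. *Adar* makes a constitutive and an interferon-inducible isoform, which counts per gene do not separate. Exons of *Chrnb2*, a nicotinic receptor subunit gene of neurons on the other strand, cover 16.8% of its exon bases. *Chrnb2* itself had 89, 107 and 276 counts in infarcts and 1171, 1128 and 774 in contralateral cortices, and its part in the *Adar* values was not tested.

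All 6 OAS genes rose, with the largest median log2 fold change of the 8 roles, 5.06. They encode 2′-5′-oligoadenylate synthetases, which activate RNase L, and relatives without that activity. *Oas3* had 42.5, 19.2 and 27.0 CPM in infarcts and 1, 0 and 6 counts contralaterally, a log2 fold change of 7.47 ± 0.99. Without contralateral cortex 3, which held 6 of those counts, the fitted value was 9.63, and without contralateral cortex 2 it was 6.86. *Oasl1* had 9.78, 7.04 and 11.7 CPM in infarcts, and in contralateral cortices only the second library held counts, 8 in all. Its log2 fold change was 5.68 ± 0.93, and leaving out that library or contralateral cortex 1 gave fitted values of 10.07 and 4.96. The sizes for *Oas3* and *Oasl1* are therefore poorly fixed, and both genes were called in each of these fits.

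The better counted *Oasl2* had 104, 83.4 and 98.4 CPM in infarcts and 3.65, 3.90 and 1.93 CPM contralaterally, with a log2 fold change of 4.88 ± 0.23. *Oas2* had 9.70, 16 and 16.6 CPM against 0.782, 0.390 and 0.461 CPM, a log2 fold change of 4.63 ± 0.38. *Oas1a* had 18.1, 9.46 and 16 CPM against 0.261, 0.585 and 0.276 CPM, with 5.24 ± 0.45. Of the 75-base stretches in *Oas1a* transcripts, 47.6% also occur in another gene. Its near copy *Oas1g* had 44, 38 and 49 counts in infarcts and 0 in all contralateral cortices, so the split of reads between these genes is uncertain. *Oas1b*, annotated as a polymorphic pseudogene since laboratory strains such as C57BL/6J carry a premature stop codon, had the lowest change of the family. It had 1.99, 3.74 and 3.27 CPM in infarcts and 0.730, 0.130 and 0.184 CPM contralaterally, a log2 fold change of 2.96 ± 0.61, and 4.20 without contralateral cortex 1.

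The 4 IFIT genes, whose proteins bind viral RNA ends and block its translation, lie side by side on chromosome 19 (34550694 to 34650009, GRCm38) and all rose. *Ifit1* had 141, 102 and 123 CPM in infarcts and 6.26, 6.95 and 4.97 CPM contralaterally, a log2 fold change of 4.32 ± 0.18 (adjusted *p* = 2.42e-07, edgeR with Benjamini-Hochberg). *Ifit2* had 207, 103 and 146 CPM against 21.2, 23.1 and 19.2 CPM, and *Ifit3* 66.0, 35.9 and 58.6 CPM against 3.39, 3.51 and 4.42 CPM. Both genes were free of overlap between regions, and the log2 fold changes were 2.84 ± 0.24 for *Ifit2* and 3.83 ± 0.25 for *Ifit3*. *Ifit3b* had the lowest, with 11.3, 7.99 and 13.1 CPM in infarcts, 1.98, 1.56 and 0.829 CPM contralaterally and a log2 fold change of 2.84 ± 0.33. *Ifit3* and *Ifit3b* share 41.1% and 35.7% of their 75-base stretches with another gene, so reads from these stretches could not be assigned and both levels may be understated. Infarct 2 held the lowest value for each of the 4 genes.

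The 6 other intracellular effectors all rose, with log2 fold changes from 1.05 to 5.04. *Rsad2* and *Cmpk2* are neighbors on chromosome 12, transcribed away from each other with 12751 bases between them. *Rsad2* encodes viperin, which makes a chain-terminating nucleotide, and CMPK2 is a nucleotide kinase that supplies its substrate. *Rsad2* had 212, 86.3 and 183 CPM in infarcts and 6.31, 4.61 and 3.50 CPM contralaterally, a log2 fold change of 5.04 ± 0.36. *Cmpk2* had 75.3, 36.6 and 65.9 CPM against 23.5, 29.4 and 32.9 CPM, so that infarct 2 was barely above contralateral cortex 3. Its log2 fold change was 1.05 ± 0.26 (adjusted *p* = 0.00621, edgeR with Benjamini-Hochberg). That call was the weakest of the 38: the log2 fold change was 0.87 without infarct 1, 0.98 without infarct 3 and 0.92 without contralateral cortex 1, below the 2-fold threshold. Against a null of 2-fold itself, edgeR's glmTreat gave *Cmpk2* an adjusted *p* of 0.423.

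The *Mx* genes encode dynamin-like GTPases that trap viral nucleocapsids, and both copies are known to be defective in C57BL/6 mice. Their transcripts were nevertheless higher in infarcts. *Mx1* had 22.7, 17.1 and 25.7 CPM in infarcts and 0.782, 0.975 and 0.276 CPM contralaterally, a log2 fold change of 4.92 ± 0.36. *Mx2*, annotated as a polymorphic pseudogene, had 3.02, 3.45 and 5.65 CPM against 1.15, 0.325 and 0.184 CPM, with 2.74 ± 0.58 in all and 3.89 without contralateral cortex 1. *Samd9l*, which encodes an antiviral restriction factor that represses translation, had 147, 142 and 101 CPM against 11.9, 8.84 and 12.6 CPM and a log2 fold change of 3.55 ± 0.20. *Isg20*, an RNA exonuclease, had 3.34, 1.54 and 2.66 CPM in infarcts against 5, 1 and 0 counts contralaterally. Its log2 fold change was 4.20 ± 0.82, and 5.73 without contralateral cortex 1.

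Membrane restriction factors rose in all 4 cases, with a median log2 fold change of 4.39. *Bst2* encodes tetherin, which holds budding virions at the cell surface, and had 34.7, 34.5 and 48.1 CPM in infarcts and 1.82, 0.650 and 1.57 CPM contralaterally, a log2 fold change of 4.85 ± 0.33. The IFITM proteins block the fusion of virus and endosome. *Ifitm3* had 100.5, 72.9 and 75.7 CPM against 2.03, 2.14 and 3.04 CPM, with 5.13 ± 0.22 (adjusted *p* = 2.25e-07, edgeR with Benjamini-Hochberg). Its neighbors on chromosome 7 also rose. *Ifitm2* had 15.5, 13.5 and 14.5 CPM against 0.574, 0.780 and 1.66 CPM, and *Ifitm1* 7.31, 5.35 and 4.09 CPM against 0.261, 0.325 and 0.737 CPM. The log2 fold changes were 3.93 ± 0.35 and 3.74 ± 0.47. The annotated gene *Gm45717* covers 40.9% of the exon bases of *Ifitm2* on the same strand, so reads there could not be assigned and the *Ifitm2* level may be understated.

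All 6 genes of the ISG15 system and of the regulators grouped with it rose, within a narrow band of log2 fold changes from 3.32 to 4.71. *Isg15* itself, the ubiquitin-like modifier, had the smallest change of the 6 with 10.9, 5.35 and 8.04 CPM in infarcts and 1.20, 0.715 and 0.368 CPM contralaterally (3.32 ± 0.43). *Usp18*, which removes ISG15 and dampens signaling at IFNAR2, had 43.6, 18.7 and 31.1 CPM against 2.29, 2.27 and 2.12 CPM, a log2 fold change of 3.79 ± 0.31. *Trim30a*, a negative regulator of Toll-like receptor signaling, had 217, 145 and 139 CPM against 6.41, 6.89 and 5.80 CPM, with 4.71 ± 0.20. It had the largest change of this role.

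The poly(ADP-ribose) polymerase genes *Parp14* and *Parp9* lie near each other on chromosome 16. *Parp14* had 226, 150.0 and 159.9 CPM in infarcts and 6.99, 6.89 and 7.74 CPM contralaterally, a log2 fold change of 4.63 ± 0.19 and the smallest *p* of all 39 genes (adjusted *p* = 1.94e-07, edgeR with Benjamini-Hochberg). *Parp9* had 46.7, 26.4 and 27.8 CPM against 2.24, 2.86 and 2.67 CPM, with 3.70 ± 0.26. Its partner *Dtx3l*, an E3 ligase gene on the other strand that covers 9.40% of the *Parp9* exon bases, was also upregulated with a log2 fold change of 2.97. *Ifi35* had 8.11, 5.86 and 5.11 CPM against 0.261, 0.390 and 0.737 CPM, with 3.85 ± 0.44.

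Of the 4 further induced genes all rose. *Ifi44* had 52.9, 32.6 and 30.4 CPM in infarcts and 1.82, 1.62 and 1.84 CPM contralaterally, a log2 fold change of 4.45 ± 0.26. *Rtp4*, a chaperone of G protein-coupled receptors, had 46.0, 25.2 and 32.2 CPM against 1.51, 1.23 and 2.76 CPM, with 4.27 ± 0.33. *Ifi27l2a* had 61, 39 and 39 counts in infarcts and 1 count in each contralateral library. With these set to 3 counts each, the infarct level was at least 16.5-fold higher. *Xaf1*, an antagonist of the apoptosis inhibitor XIAP, had 94, 103 and 163 counts in infarcts against 42, 18 and 12 counts, and the smallest change of this role with 2.51 ± 0.33.

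**Figure D3:**
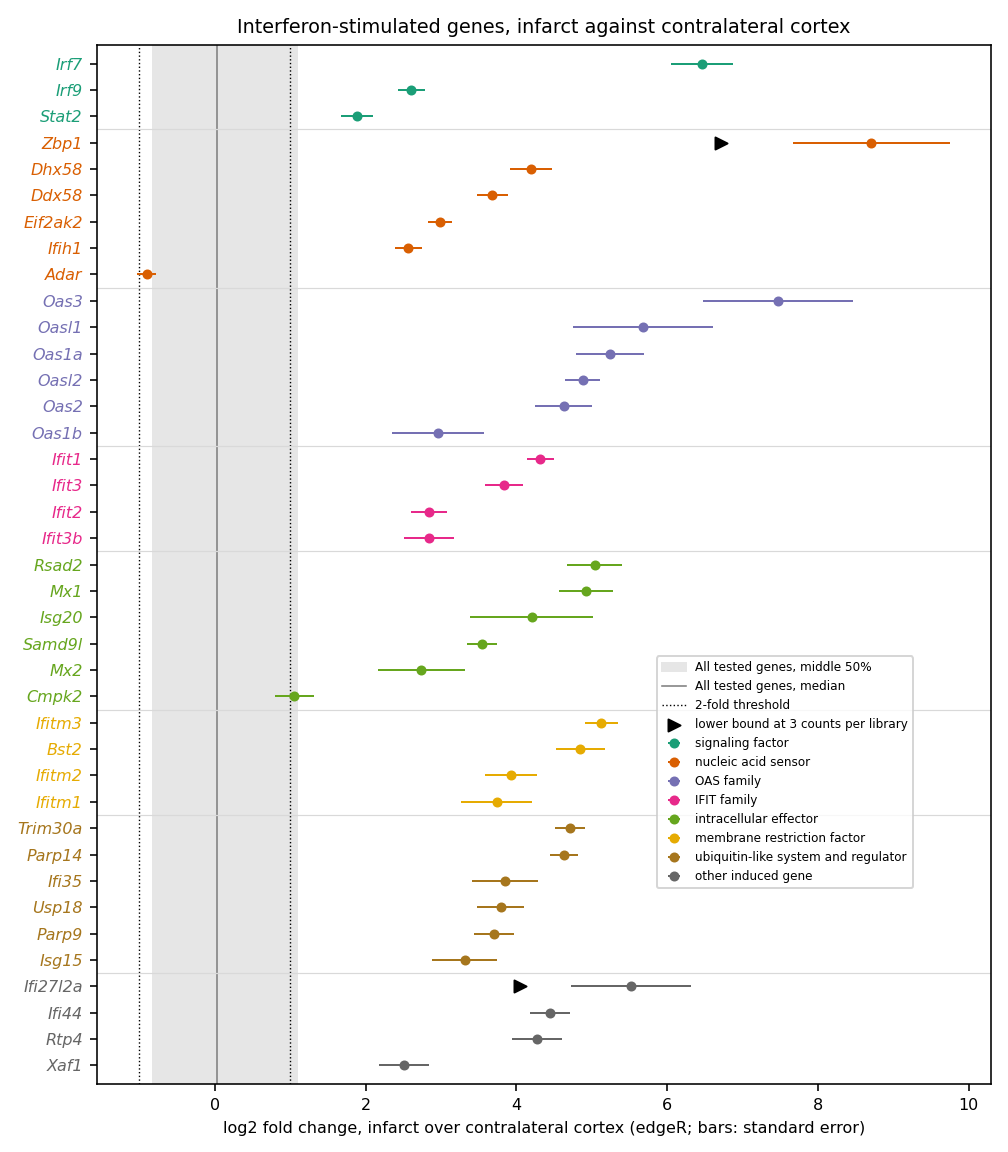
Log2 fold change (edgeR, infarct over contralateral cortex, bars of 1 standard error) of the 39 interferon-stimulated genes, colored by role, beside the middle 50% (grey) and median of all tested genes and the 2-fold threshold (dotted). Triangles mark the lower bounds of *Zbp1* and *Ifi27l2a*. All genes but *Adar* and *Cmpk2* lie to the right of the grey band.

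To compare levels between genes, values were also taken per length, as RPKM over the annotated exon bases. In infarcts *Ifitm3* was highest at 122 RPKM, followed by *Ifit1* at 45.9, *Bst2* at 43.3, *Trim30a* at 40.6, *Ifit2* at 38.7 and *Rsad2* at 37.0 RPKM. The order was different in the contralateral cortex, where *Adar* led at 19.5 RPKM, ahead of *Cmpk2* at 6.87 and *Ifit2* at 5.39 RPKM. The genes with the highest contralateral level per length, *Adar* and *Cmpk2*, were also the ones whose log2 fold change stayed below the upper quartile of all tested genes, and the other 37 lay above it. The contralateral level is the denominator of the fold change, so these measures are not independent. *Ifitm3*, at rank 4 contralaterally with 3.55 RPKM, had a log2 fold change of 5.13. Summed over the 39 genes, expression was 2523, 1728 and 1987 CPM in infarcts and 337, 331 and 318 CPM contralaterally, a 6.32-fold difference of the means. The contralateral sums lay close to each other, and *Adar* alone made up 153 to 164 CPM of each.

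Infarct libraries were not alike in these genes. The ratio of the highest to the lowest infarct value had a median of 1.65, from 1.08 for *Adar* to 2.46 for *Rsad2*, and exceeded 2 for 7 genes and 3 for 0. The infarct coefficient of variation had a median of 25.8% over the 39 genes, compared with 19.5% over all upregulated genes. The contralateral median was 31.9% for the 39 genes, many of which had few counts there, and 14.3% over all tested genes. The libraries kept an order: 30 of the 39 genes were highest in infarct 1, 8 in infarct 3 and 1, *Oas1b*, in infarct 2. The lowest value fell in infarct 2 for 26 genes, in infarct 3 for 9 and in infarct 1 for 4. Among all genes upregulated in infarcts, 60.5% were highest in infarct 1, but 59.4% were lowest in infarct 3 and 25.6% in infarct 2. These are single libraries, and the differences between them were not tested.

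The genes that were lowest in infarct 2 included all 4 IFIT genes, 4 of the 6 OAS genes and *Rsad2*, *Cmpk2* and *Usp18*. *Ifih1*, *Irf9*, *Samd9l*, *Ifitm1* and *Ifi35* were instead lowest in infarct 3. *Oas2*, *Oas1b*, *Mx2* and *Xaf1* were lowest in infarct 1, which was highest for most of the list.

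**Figure D4:**
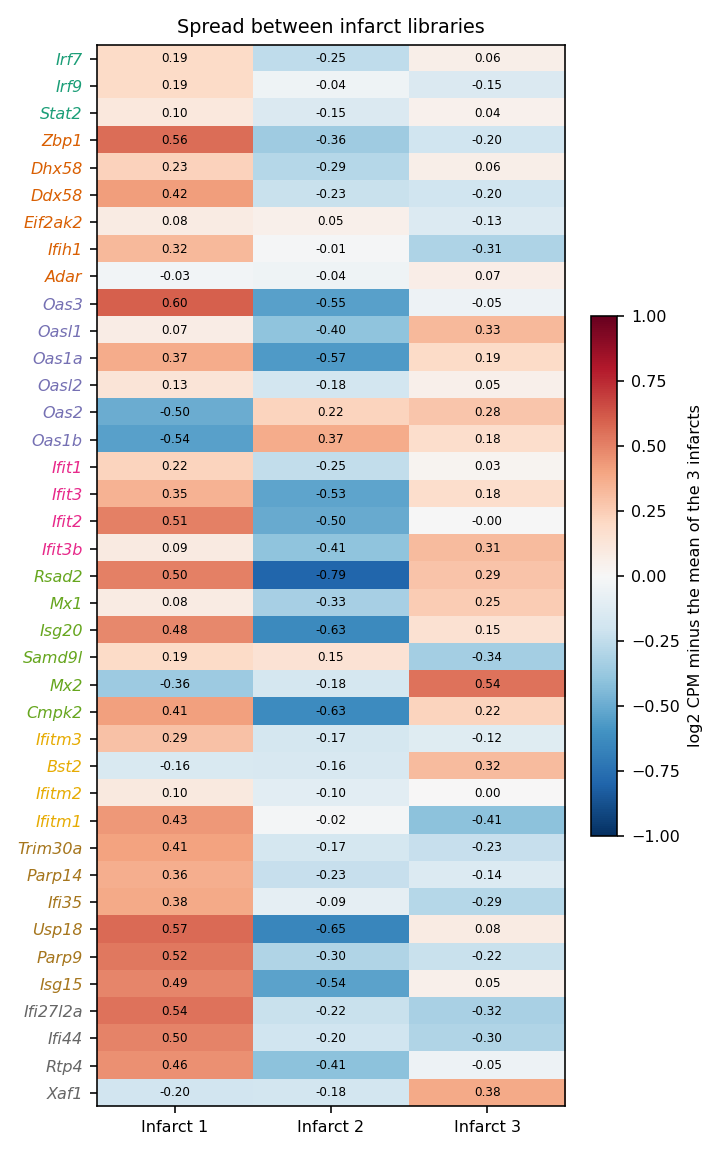
Deviation of each infarct library from the mean of the 3 infarcts (log2 CPM, red above and blue below) for the 39 interferon-stimulated genes, ordered by role. Most genes are red in infarct 1 and blue in infarct 2, with *Rsad2* at -0.79 in infarct 2, while *Oas2* and *Oas1b* are blue in infarct 1.

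Markers of other cell types moved with region. Summed over each marker list, pan-leukocyte genes had 1406, 934 and 833 CPM in infarcts and 69.1 to 87.2 CPM contralaterally, with 6 of 6 genes upregulated. Microglia and macrophage genes had 3039, 2521 and 2337 CPM against 293 to 393 CPM, with 11 of 12 upregulated. T cell genes had 107, 42.1 and 26.6 CPM against 0.390 to 0.737 CPM (7 of 7 upregulated), and B and plasma cell genes 2262, 834 and 253 CPM against 1.41 to 3.87 CPM (6 of 6 upregulated). Fibroblast genes had 6914 to 8665 CPM against 146 to 188 CPM (6 of 6 upregulated), neutrophil genes 64.0 to 81.0 CPM against 4.74 to 5.99 CPM (5 of 5 tested), and NK cell genes 16.4 to 39 CPM against 0 to 0.209 CPM (4 of 4 tested). The T cell markers *Cd2* and *Cd8a* and the NK cell marker *Klrb1c* were at 0 counts in all contralateral libraries. Over all tested genes 25.7% were upregulated. At most 3 counts in every contralateral library were found for 4 of 4 tested NK cell genes and 3 of 5 neutrophil genes. The same held for 4 of 7 T cell genes and 4 of 6 B and plasma cell genes. It also held for *Cd52* on the pan-leukocyte list and *Ly6d* on the list for plasmacytoid dendritic cells. Such genes passed the filter through the infarcts only and could not have been called lower. On the list for plasmacytoid dendritic cells, the strongest producers of type I interferon, 2 of 5 tested markers rose and 2 fell. *Siglech* had a log2 fold change of 0.02. *Siglech* (16.2 to 18.4 CPM) and *Pacsin1* (212 to 229 CPM) were well counted in every contralateral cortex, and *Pacsin1* fell as the neuronal genes did. The list therefore cannot tell whether these cells increased. Endothelial markers had 350.2 to 508 CPM against 236 to 263 CPM and rose for 3 of 7 genes. Neuronal genes fell for 8 of 8, to 501 to 1330 CPM from 7663 to 8855 CPM. Oligodendrocyte markers had 4096 to 6680 CPM in infarcts against 2128 to 2533.5 CPM, with 3 of 6 upregulated. Astrocyte markers had 2641.5 to 3570.5 CPM against 1128 to 1315 CPM, with 2 of 6 upregulated. Whether the 2 dissections held different shares of white matter or surrounding tissue was not tested. Infarct 1, highest for most interferon-stimulated genes, was also highest in the leukocyte, macrophage, T cell and B cell sums, but infarct 3, lowest in these sums, was not the lowest for most interferon-stimulated genes.

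The summed level of the 39 genes was set against the marker sums of the same library. Relative to pan-leukocyte markers it was 1.79, 1.85 and 2.39 in infarcts and 3.87, 4.80 and 3.80 contralaterally, lower in every infarct. Relative to microglia and macrophage markers it was 0.830, 0.685 and 0.850 in infarcts and 0.956, 1.13 and 0.809 contralaterally, and the regions overlapped. Relative to endothelial markers it was 4.97, 4.27 and 5.67 against 1.43, 1.26 and 1.24, higher in every infarct. *Adar*, the gene that did not rise, weighed heavily in the contralateral sum. Without it, a choice that rests on the outcome, the ratio to microglia and macrophage markers was 0.803, 0.653 and 0.812 in infarcts and 0.490, 0.596 and 0.421 contralaterally, now without overlap and higher in infarcts. The ratio to pan-leukocyte markers was then 1.74, 1.76 and 2.28 against 1.98, 2.53 and 1.97, with overlap. *Coro1a* supplied most of the contralateral pan-leukocyte sum, and without it, as chosen after the values were seen, the ratio of all 39 genes stayed lower in every infarct, at 1.99, 2.06 and 2.68 against 9.36, 10.8 and 8.51. With both *Adar* and *Coro1a* left out, it was 1.93, 1.96 and 2.56 in infarcts against 4.80, 5.70 and 4.42, again lower in every infarct. Without *Adar*, the ratio to endothelial markers stayed higher in every infarct, at 4.80, 4.07 and 5.42 against 0.731, 0.664 and 0.644. The direction of the difference therefore depended on the marker list. It depended on *Adar* for the microglia and macrophage list and the full pan-leukocyte list. The contralateral microglia and macrophage sum, with a mean of 346 CPM, drew heavily on *Csf1r* (118 CPM), *Cx3cr1* (80.7 CPM) and *P2ry12* (56.5 CPM). Their log2 fold changes were 1.96, 1.59 and -0.20, below the median of 3.92 for that list. The ratio without these genes was not taken, so its direction for this list may also depend on them. The part of cell numbers in the increase was not tested.

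The interferons themselves were hardly counted. Of 21 ligand genes 0 passed the filter on low counts. *Ifnb1*, which encodes interferon-β, had 0 counts in all 6 libraries, and so did 15 of the other 17 type I interferon genes. The exceptions were *Ifna4* with 1 count in infarct 3 and *Ifnk* with 2, 0 and 1 counts in infarcts. *Ifng*, the type II interferon of T and NK cells, had 2, 6 and 0 counts in infarcts and 0 in contralateral cortices. Another annotated gene covers 25.95% of the *Ifng* exon bases on the same strand, so reads there could not be assigned and its level may be understated. A count of 0 in a library still allows up to 3 counts, and 8 of the 14 *Ifna* genes share over 10% of their 75-base stretches with another gene, so low expression of these ligands was not detectable at this depth.

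All 6 interferon receptor genes rose, against 25.7% of all tested genes upregulated. *Ifnar1* had 72.7, 60.3 and 54.1 CPM in infarcts and 27.2, 27.3 and 27.5 CPM contralaterally, a log2 fold change of 1.19 ± 0.16. Its partner *Ifnar2* had 50.01, 44.3 and 37.4 CPM against 5.84, 6.50 and 7.46 CPM, with 2.74 ± 0.18. The contralateral values of *Ifnar1* were close to identical, and both chains were free of overlap between regions. For interferon-γ, *Ifngr1* changed by 3.20 ± 0.24 and *Ifngr2* by 1.18 ± 0.16 on the log2 scale. For interferon-λ, *Il10rb* changed by 3.86 ± 0.18, and *Ifnlr1*, with 44, 33 and 36 counts against 1, 2 and 0, was at least 13.3-fold higher. *Ifnlr1* passed the filter through the infarcts only and could not have been called lower. *Ifnar1* and *Ifngr2* were not called by glmTreat against 2-fold (adjusted *p* = 0.110 and 0.120).

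Downstream of the receptors, the kinase gene *Tyk2* rose with 37.8, 34.8 and 27.7 CPM against 8.76, 9.03 and 8.29 CPM contralaterally, a log2 fold change of 1.94 ± 0.18. *Jak2*, which serves interferon-γ, was called at 1.04 ± 0.16 on the same scale, but its log2 fold change was 0.91 without infarct 1 and 0.95 without contralateral cortex 1, and glmTreat gave an adjusted *p* of 0.402. *Jak1* had 412, 373 and 293 CPM against 210.2, 238 and 233 CPM and was not called at 0.66 ± 0.17.

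Among genes that sense nucleic acids and signal upstream of interferon, 12 of 14 rose, against 25.7% of all tested genes. Their median log2 fold change was 2.94. The endosomal RNA receptor *Tlr8* had 173, 149 and 107 CPM in infarcts and 0.365, 0.585 and 1.01 CPM contralaterally, a log2 fold change of 7.86 ± 0.36. *Unc93b1*, the chaperone that carries such receptors to endosomes, had 196, 93.9 and 104 CPM against 6.05, 4.55 and 5.71 CPM, with 4.59 ± 0.29. In contrast, the shared kinase *Tbk1* and its adaptor *Traf3* had log2 fold changes of 0.14 ± 0.18 and 0.13 ± 0.15, with values that overlapped between regions and adjusted *p* values of 0.501 and 0.453 (edgeR, Benjamini-Hochberg). Of the other interferon regulatory factors, 5 of 7 rose, against the same 25.7%, led by the myeloid factors *Irf8* (4.75 ± 0.25) and *Irf5* (4.72 ± 0.23). *Irf2* at 0.97 was not called, and it passed the threshold at 1.10 without infarct 3 and 1.11 without contralateral cortex 3.

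Of 10 negative regulators 8 could be tested and 4 rose, against 25.7% of all tested genes upregulated. *Ptpn6*, the phosphatase SHP-1 of blood cells, changed by 4.60 ± 0.27, and *Samhd1*, which degrades deoxynucleotides, by 3.82 ± 0.23. The call of *Rnaseh2c* was lost without contralateral cortex 2 (adjusted *p* = 0.061, edgeR) and in glmTreat against 2-fold (adjusted *p* = 0.167). *Rnaseh2a* had -0.34 ± 0.20 and *Pias1* -0.17 ± 0.13, and neither was called. *Trex1*, the exonuclease that clears cytoplasmic DNA, was listed at 0 counts in all 6 libraries, and all its exon bases lie within exons of *Atrip* on the same strand, so no level can be given.

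A second list of 57 interferon-stimulated genes outside the 39 gave 49 of 54 tested genes upregulated and 0 downregulated. Over all tested genes 25.7% were upregulated and 20.9% downregulated. Of the 54, 8 had at most 3 counts in every contralateral library and could not have been called lower. The median log2 fold change was 3.84, or 3.79 with these 8 set to their lower bound. The chemokine genes *Cxcl9* and *Cxcl10*, which draw in T cells, had 0 counts in all contralateral libraries and were at least 99.6-fold and 65.9-fold higher in infarcts. *Cxcl9* had 499, 147 and 177 counts in infarcts 1, 2 and 3, and its adjusted *p* in edgeR was 0.0556 when no filter on low counts was applied. The smallest changes were those of *Pnpt1* (0.59 ± 0.18) and *Tdrd7* (0.63 ± 0.15), which were not called. The AIM2-like receptors, a family of DNA-binding proteins, rose in 10 of 10 tested cases, out of 14 listed, against 25.7% of all tested genes. Of the 10, 4 had at most 3 counts in every contralateral library. These passed the filter through the infarcts only and could not have been called lower. *Ifi213* and *Ifi205* were at 0 counts in the contralateral cortex and at least 68.8-fold and 22.7-fold higher in infarcts. *Aim2* (3.86 ± 0.25) and *Ifi208* (5.24 ± 0.83, and 6.34 without contralateral cortex 2) had the smallest changes.

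Paralogs of the 39 genes were not uniformly higher, and 5 of 9 tested rose, out of 18 listed. Of the 9, 2 had at most 3 counts in every contralateral library and could not have been called lower. *Oas1g* was at least 15.3-fold higher and *Trim30d* changed by 4.87 ± 0.27. *Ifitm10* had 4.29, 3.52 and 4.02 CPM in infarcts and 6.20, 4.81 and 6.54 CPM contralaterally, and was not called at -0.57 ± 0.24. *Ifit1bl2*, a neighbor of *Ifit1*, had 1.43, 1.32 and 1.16 CPM against 1.51, 1.82 and 1.29 CPM, which overlapped, and a log2 fold change of -0.25 ± 0.36 with an adjusted *p* of 0.556 (edgeR, Benjamini-Hochberg).

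**Figure D5:**
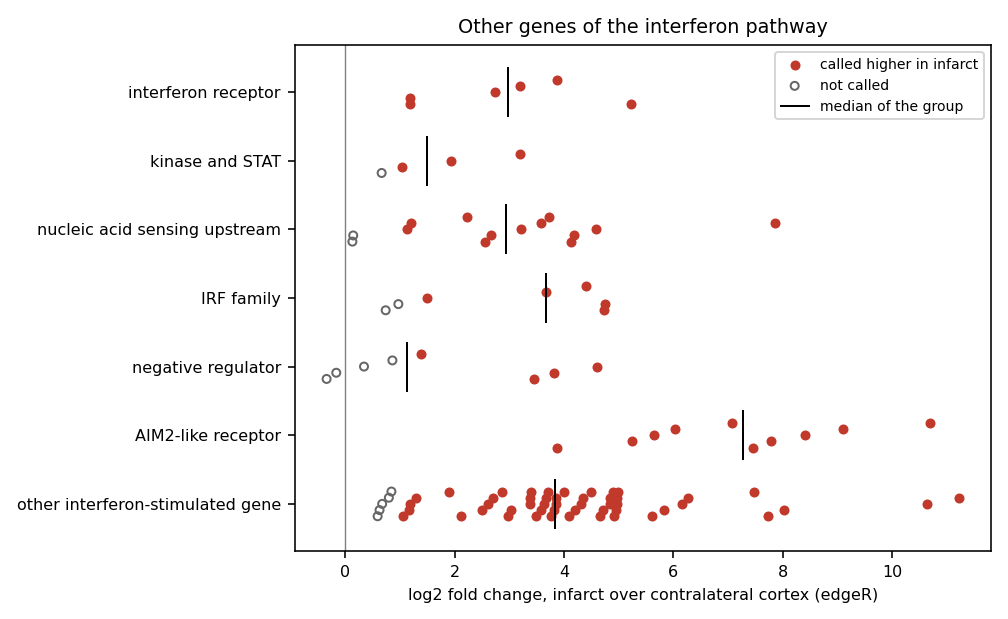
Log2 fold change (edgeR, infarct over contralateral cortex) of the tested interferon pathway genes outside the list of 39, 1 point per gene, grouped by role with the median of each group as a bar. Genes listed only as paralogs of the 39 are not drawn. Filled points were called upregulated and open points were not called. Genes with 0 contralateral counts, such as *Cxcl9*, are drawn at their fitted value, which is no bound.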

How the data were processed

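Per the labels and methods, libraries were stranded mRNA. The authors demultiplexed reads with bcl2fastq 2.19, trimmed them with Trimmomatic 0.32, aligned them to GRCm38 with STAR 2.5.2b and deposited raw counts per Ensembl gene from htseq-count, without normalization. The version, annotation and strand setting of htseq-count are not given in the sources used here. Reads aligning to several places or genes were tallied apart and left out, so genes with near copies are undercounted. On genes fell 65.7% to 73.4% of the tallied reads.

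Symbols, positions and exon lengths came from GENCODE M21 (45229 identifiers matched, 849 did not) and promoters from RefSeq. Counts were filtered with filterByExpr, scaled with TMM and fitted with region as the only term in edgeR 4.0.16 (R 4.3.3). The procedure was tested on simulated data. Regions whose 3 libraries held 3 counts or fewer were set to 3 counts per library for bounds. Bounds cover counting error only, since no molecular identifiers were used and reads can repeat a molecule. Tables and plots were made in Python 3.11.15.

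The 39 genes and all other lists were chosen with earlier results of these data known. All 39 genes are accounted for. Values were to be given for each signaling factor and sensor, the extremes of each role, every gene not called or whose call changed under an alternative, all interferon ligands, receptors and kinases, and the 2 largest and 2 smallest changes in each other role. *Chrnb2*, *Dtx3l*, *Gm45717* and *Atrip* are named as overlapping genes, after their values were seen. Some genes that the rule covers are not reported here. Alternatives were DESeq2 1.42.0, limma voom (limma 3.58.1), other scalings and filters, glmTreat, no fold change threshold, a replicate block and each library left out.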

Additional observations from a re-analysis of the deposited data

How the results depend on the processing

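Of the 39 interferon-stimulated genes, 37 had the same direction and call in every alternative setting in which they were tested. The exceptions were *Cmpk2*, which lost its call in 4 settings, and *Adar*, which was called lower, as 1 downregulated gene, when the adjusted *p* alone was used. Requiring at least 10 counts in every library left 24 of the 39 genes to test, of which 23 were upregulated. Leaving out each library in turn gave 37 to 38 upregulated genes and a median log2 fold change of 3.80 to 4.20, the highest without contralateral cortex 3. It gave 93 to 96 upregulated genes on the other interferon lists, against 93 of 111 tested with all libraries, and over all genes 4028 to 4174 upregulated and 3145 to 3608 downregulated. With library totals in place of TMM, the all-gene median moved from 0.03 to 0.23 on the log2 scale, 3 genes rather than 1 were highest in infarct 2, and the log2 ratios of summed neutrophil and fibroblast markers were 3.93 and 5.74 rather than 3.73 and 5.54. After the data were seen, the 5 genes that share over 10% of their 75-base stretches with another gene were left out, and 33 of the remaining 34 were upregulated.

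The libraries share the numbers 1 to 3 in both regions, but whether same-numbered libraries share a mouse is not known. Their deviations correlated at -0.21, 0.11 and 0.02, and those of differently numbered libraries at -0.27 to 0.19. This check cannot tell pairs from other libraries, and the main fit treated all libraries as unpaired. With the replicate block, 38 of the 39 genes were upregulated, and over all genes 3945 were upregulated and 3222 downregulated. At 3 libraries per region, genes with few contralateral counts, such as *Oas3*, *Oasl1* and *Isg20*, have a direction but no well-fixed size.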
